A study of Homo sapiens with 2 samples.

Results

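The histone genes were taken from the deposited table as every gene whose symbol starts with HIST1, HIST2, HIST3, HIST4, H1F, H2AF or H3F, which gave 81 of 18930 genes. Of these, 65 lie in the histone clusters (symbols HIST1 to HIST4) and 16 are variant genes outside the clusters. The study compared A375 cells, a human melanoma line, between cells resistant to dacarbazine (DTIC, a drug that alkylates DNA), labelled DR, and the wild-type control, labelled WT, with 1 RNA-seq library each. The labels give total RNA from skin, and they give the same treatment, 105 days of the drug, for the library labelled WT as for the library labelled DR. The count columns were assigned through the sample descriptions, whose wording is the same but for 1 punctuation mark. Every direction given here rests on that mark. Both descriptions hold the letters BR of the title of the DR sample, and neither holds the letters wt of the title of the WT sample. The descriptions alone therefore do not show that the column taken as WT comes from the wild-type control. With 1 library per group there is no replicate check and no test, and each difference is one between these 2 libraries.

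Histones are the proteins around which DNA is wound. H2A, H2B, H3 and H4 form the core of the nucleosome and H1, the linker histone, binds where the DNA enters and leaves it. Most cluster genes are replication-dependent: they are transcribed in S phase, have no introns, and their mRNAs end in a conserved stem-loop in place of a poly(A) tail. The variant genes outside the clusters are mostly expressed through the whole cell cycle, give polyadenylated mRNAs, and supply replacement histones such as the replacement H3 of H3F3A and H3F3B, the H2A.Z proteins, macroH2A and the linker histones H1.0 and H1X.

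The stem-loop that separates most cluster mRNAs from ordinary mRNAs was looked for in the GENCODE 29 transcripts (GRCh38) on the transcript strand, as 16 bases that form a 6-base-pair stem and a 4-base loop, with any base allowed at 3 positions. Of the 36 cluster genes with at least 30 annotated bases after the stop codon, 31 (86.1%) held it, against 1 of 15 variant genes and 34 of 18990 protein-coding genes of any kind (0.179%). The lines below show it in 7 members whose values are described later, as DNA letters 5′ to 3′ with 5 bases on each side, and the capitals mark the stem and loop.
HIST2H2AA3: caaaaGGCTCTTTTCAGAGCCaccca
HIST2H2BE: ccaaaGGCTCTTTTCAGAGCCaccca
HIST1H2BH: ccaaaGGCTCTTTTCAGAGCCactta
HIST1H3H: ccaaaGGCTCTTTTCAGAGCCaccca
HIST4H4: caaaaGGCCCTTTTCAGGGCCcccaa
HIST2H4A: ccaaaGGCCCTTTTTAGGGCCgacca
H2AFX: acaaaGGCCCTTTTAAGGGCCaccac
All 8 stem-loops found in H4 genes began with GGCCC, while the most frequent form, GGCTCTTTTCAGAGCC, was found in 17 genes of the H2A, H2B and H3 families. The only variant gene with a stem-loop was H2AFX, which encodes the H2A that is phosphorylated at DNA breaks and is known to give both a stem-loop mRNA and a longer polyadenylated one. The gene length in the deposited table was within 100 bases of the end position of the stem-loop in the transcript for 26 of the 31 cluster genes. It was more than 100 bases longer for HIST1H2AE, HIST1H2BD and HIST2H2BE, and for H2AFX. It was more than 100 bases shorter for HIST1H3G and HIST1H4I. Transcript starts can differ between the sources, so the lengths alone do not show whether reads beyond the stem-loop were counted.

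The promoters, taken from RefSeq as 250 bases before to 50 bases after each start, were found for 74 of the 81 genes. H3F3C, HIST1H3I, H1F0, HIST1H2AH, HIST1H4C, HIST1H4A and HIST1H3J had no entry. Of the 60 cluster promoters, 45 lie on chromosome 6, 14 on chromosome 1 and 1 on chromosome 12. The lines below give the promoters of HIST1H2BH, HIST2H2AA3, H1FX and H2AFJ, which were past the fold threshold described below, each read 5′ to 3′ on the strand of its gene. The capitals mark the TATA motif TATAAA, the box CCAAT and the octamer ATTTGCAT on either strand. On the opposite strand the box reads ATTGG.
HIST1H2BH, GRCh38.p14 chr6:26251364-26251663, strand plus: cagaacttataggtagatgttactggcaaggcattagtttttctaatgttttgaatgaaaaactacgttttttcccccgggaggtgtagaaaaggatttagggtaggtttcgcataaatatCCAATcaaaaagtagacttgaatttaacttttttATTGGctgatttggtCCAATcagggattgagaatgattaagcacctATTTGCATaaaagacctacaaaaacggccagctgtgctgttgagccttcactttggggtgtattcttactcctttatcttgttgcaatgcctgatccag
HIST2H2AA3, GRCh38.p14 chr1:149842701-149843000, strand minus: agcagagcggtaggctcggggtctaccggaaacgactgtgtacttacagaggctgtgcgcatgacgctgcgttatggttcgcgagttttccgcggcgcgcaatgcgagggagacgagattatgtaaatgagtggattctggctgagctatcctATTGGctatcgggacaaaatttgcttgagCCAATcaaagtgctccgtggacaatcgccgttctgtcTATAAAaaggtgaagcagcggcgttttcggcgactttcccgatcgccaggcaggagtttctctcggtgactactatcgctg
H1FX, GRCh38.p14 chr3:129316237-129316536, strand minus: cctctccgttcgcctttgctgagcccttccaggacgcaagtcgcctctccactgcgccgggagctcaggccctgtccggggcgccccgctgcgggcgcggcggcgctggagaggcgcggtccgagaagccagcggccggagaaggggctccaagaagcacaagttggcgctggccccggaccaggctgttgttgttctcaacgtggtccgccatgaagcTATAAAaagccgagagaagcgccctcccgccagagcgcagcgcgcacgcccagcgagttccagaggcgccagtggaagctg
H2AFJ, GRCh38.p14 chr12:14774155-14774454, strand plus: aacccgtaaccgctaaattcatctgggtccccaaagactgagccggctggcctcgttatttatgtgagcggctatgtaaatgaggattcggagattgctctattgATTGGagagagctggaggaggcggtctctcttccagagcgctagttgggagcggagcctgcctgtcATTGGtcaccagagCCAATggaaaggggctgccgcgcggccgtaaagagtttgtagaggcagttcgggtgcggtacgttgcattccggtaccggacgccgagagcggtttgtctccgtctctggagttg
CCAAT was present in all 6 H1, 15 H2A, 17 H2B and 12 H3 cluster promoters but in 1 of 10 H4 promoters, against 35.7% of 27305 promoters of all genes. The octamer ATTTGCAT, a motif known from H2B promoters, was in 13 of 17 H2B (76.5%) and 10 of 15 H2A promoters (66.7%), in 1 of 12 H3 and in none of the H1 or H4 promoters, against 1.8% of all promoters. TATAAA was in 65% of cluster promoters, 28.6% of variant promoters and 12% of all. The H2A and H2B values are not separate, since 10 pairs of H2A and H2B genes face away from each other and share 253 to 293 bases of these 300-base windows. The H3 promoter with the octamer, that of HIST1H3D, is the same window as that of HIST1H2AD. A match says only that the letters are present.

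The deposited estimated counts were rounded to whole reads, which came to 54878310 for DR and 35294629 for WT. Levels are given as normalized CPM, which are reads scaled to a common library size by edgeR's TMM method. Levels per kilobase use the length in the table. Shares, sums and ratios of reads between genes are not corrected for length. A gene entered the comparison when the libraries held 10 or more of its reads in all, which 16210 genes of the whole table did, and a gene was called higher or lower when its log2 fold change (DR over WT, after adding 0.5 CPM) reached 1. Intervals given with ratios come from the exact (Clopper-Pearson) 95% limits on what fraction of a gene's reads fell in DR. Like the Poisson intervals of summed levels, they cover counting error only. Of the 15 listed melanocytic markers found in the deposited table, 0 were above the median of all genes per kilobase in either library. TYR and S100B, also listed, were not found in it. SOX10, a defining gene of melanocytes, had 3 and 0 reads. By contrast, 11 of 14 plasma cell markers were above that median in each library, with IGLL5 at 7787 and 4796 CPM. The libraries are therefore named by their labels, and the part of cell identity in the results was not tested.

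The variant genes gave nearly all histone reads. They held 96.5% of the histone reads in DR and 94.6% in WT, and the cluster genes 3.55% and 5.42%. The summed level of the 16 variant genes was 2774 CPM in DR and 2493 CPM in WT, a log2 ratio of 0.15 (0.14 to 0.17). The summed level of the 60 cluster genes with counts was 102 CPM in DR and 143 CPM in WT, a log2 ratio of -0.48 (-0.54 to -0.43). Cluster reads were thus lower and variant reads slightly higher in the library labelled DR. Within the variant sum, H1FX alone stood at 518 CPM in DR and 221 CPM in WT, a larger difference than that of the whole sum. Of the 10 variants compared, 6 had a log2 fold change below 0 and 4 above, while 48.9% of all genes compared were below 0. In bulk RNA, fewer cells of a kind (here, cells in S phase) and less RNA per cell cannot be told apart.

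Per kilobase the separation of the groups was wide. The median level of the 43 cluster genes with at least 10 reads was 1.53 CPM per kilobase in DR and 1.63 in WT, below the 6.46 and 6.40 of all genes compared. The 10 variant genes with at least 10 reads had medians of 117 and 106 CPM per kilobase. Over all 16 variant genes the medians were 24.2 and 11.6, and 8 of the 16 were above the median of all genes compared in each library. Over the 60 cluster genes with counts the medians were 0.782 and 0.790. H3F3A, 1 of the genes for the replacement H3, was the highest histone gene, at 849 CPM per kilobase in DR and 863 in WT, and ranked 79 and 63 among all genes compared. Of the cluster genes, 43 in DR and 42 in WT were under 1 CPM and only 2 and 3 reached 10 CPM, so the labelled libraries give few reads for most of them. Whether polyadenylated RNA was selected is not given in the sources used here.

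**Figure D1:**
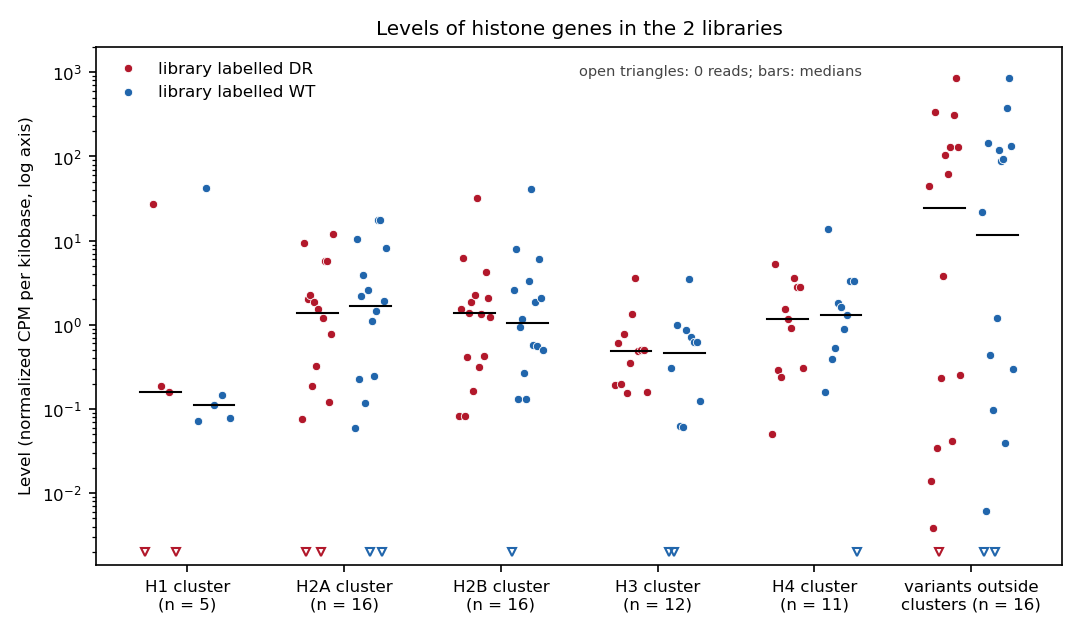
Level of each histone gene with counts in the library labelled DR (red) and the library labelled WT (blue), in normalized CPM per kilobase on a log axis, by cluster family and for the variants outside the clusters. Each point is 1 gene, bars are medians over all genes shown and open triangles are genes with 0 reads. The highest cluster gene stands at 42.8 and the highest variant at 863 CPM per kilobase, both in the library labelled WT.

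By family, H2B gave most cluster reads, 47.8 CPM in DR and 61.2 CPM in WT, a log2 ratio of -0.36 (-0.44 to -0.27). H2A stood at 22.4 and 35.2 CPM (-0.65, interval -0.77 to -0.54) and linker H1 at 20.2 and 31.6 CPM (-0.65, interval -0.77 to -0.53). H4 stood at 7.24 and 10.5 CPM (-0.54, interval -0.74 to -0.33). These 4 families were lower in the library labelled DR. H3 had the fewest reads, 4.55 and 4.22 CPM, and its log2 ratio of 0.11 lay within counting error of 0 (-0.19 to 0.41). The H2A and H4 values each rested on few genes: without HIST2H2AA3 and HIST2H2AA4 the H2A ratio was -0.03, and without HIST1H4C the H4 ratio was 0.02, both computed after the values were seen. Leaving out genes with fractional counts turned the H2B ratio to 1.15, since only HIST1H2BG and HIST1H2BH then remained in the sum.

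**Figure D2:**
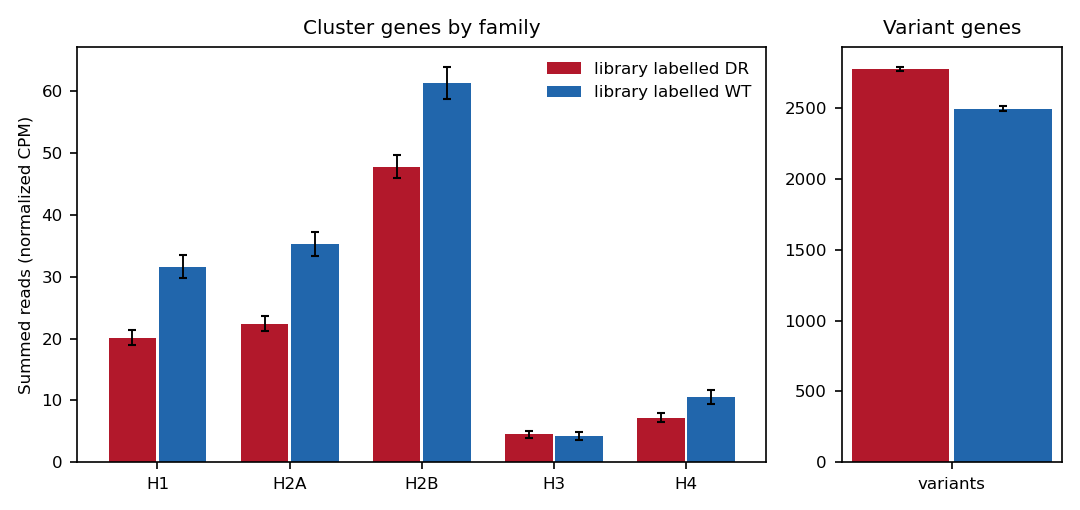
Summed level of the cluster genes of each histone family (left) and of the 16 variant genes (right), in normalized CPM with an axis that starts at 0, in the library labelled DR (red) and the library labelled WT (blue). Error bars are 95% Poisson intervals of the summed reads; the H2A bars stand at 22.4 and 35.2 CPM and the H3 bars at 4.55 and 4.22 CPM.

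Gene by gene, the cluster genes leaned to lower values. Of the 43 compared, 30 had a log2 fold change below 0 and 13 above, a share below 0 of 69.8% against 48.9% of all genes compared. Their median log2 fold change was -0.15, against 0.01 for all genes, and it turned to 0.019 when genes with fractional counts were left out. At the threshold of 1, 1 cluster gene (HIST1H2BH) was higher and 3 (HIST2H2AA3, HIST2H2AA4 and HIST1H4C) were lower in the library labelled DR, beside 7.48% of all genes compared that were higher and 4.16% that were lower. As shares of 43 genes these are 2.33% and 6.98%. All these counts take both genes of each pair with equal values in both libraries, and all such pairs lay below 0. With each pair counted once, 1 cluster gene was higher and 2 were lower, and the median was -0.149. Because 0.5 CPM was added, only 30 of the 43 had enough reads to reach the threshold at all, against 91.9% of all genes compared. The other 22 cluster genes had under 10 reads (17) or no count in the table (5: HIST1H1A, HIST1H2BM, HIST1H3I, HIST3H3 and HIST1H4A). The counting interval of the ratio lay below 0 for 10 of the 43 cluster genes, above 0 for 4 and across 0 for 29. The 10 include both HIST2H2AA3 and HIST2H2AA4, which hold equal values. The same shares were not computed for all genes compared, so these counts cannot be read as a trait of the cluster genes.

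**Figure D3:**
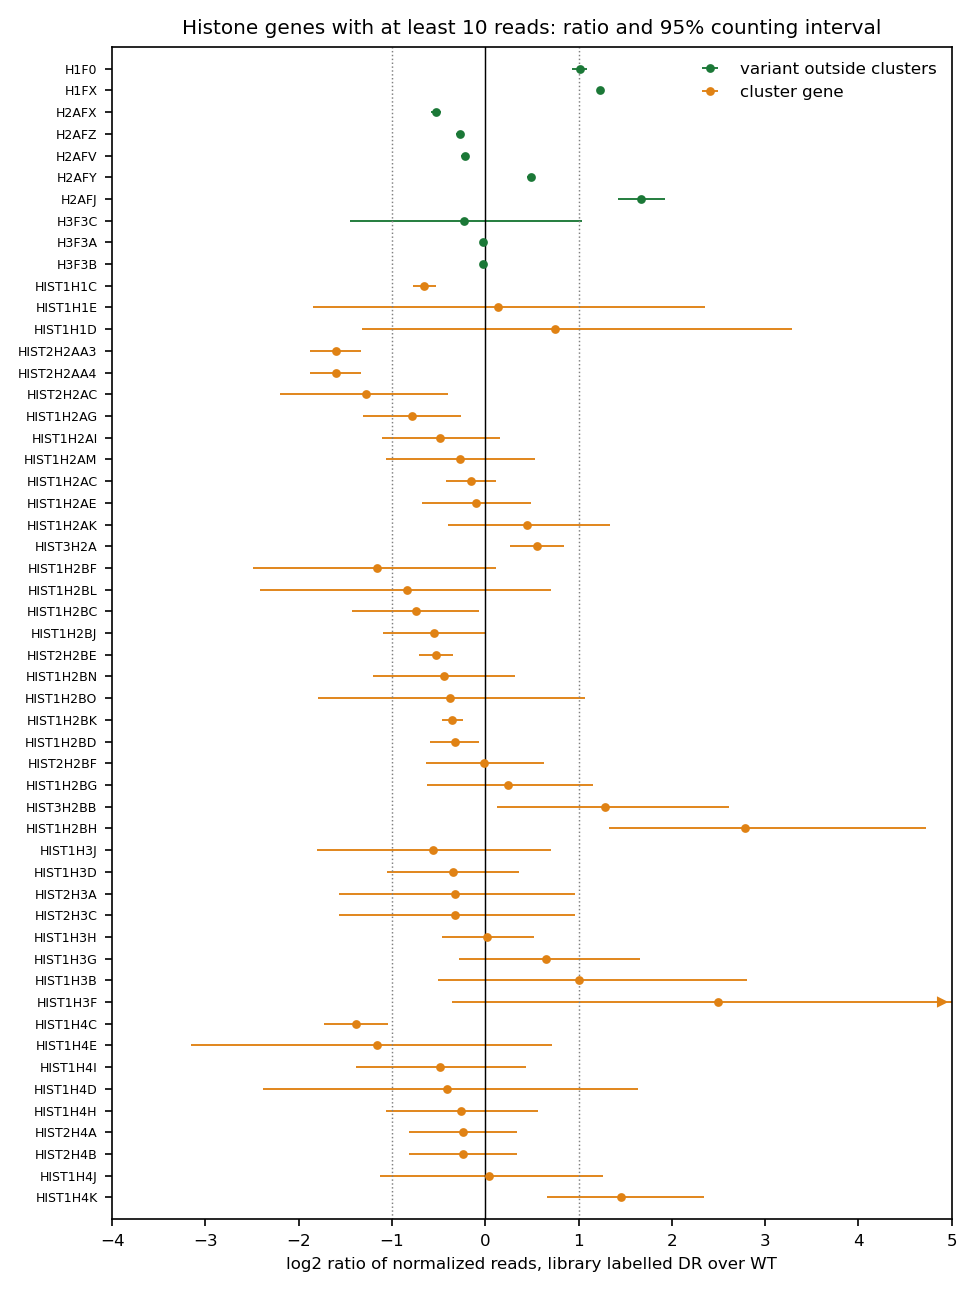
log2 ratio of normalized reads, library labelled DR over library labelled WT, for the 53 histone genes compared, with 95% Clopper-Pearson counting intervals. Green marks the 10 variants and orange the 43 cluster genes. Dotted lines mark -1 and 1, and the arrow marks 1 interval that runs past the axis. Among the cluster genes 10 intervals lie below 0, with HIST2H2AA3 and HIST2H2AA4 both counted, and 4 above it.

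Among the linker histone genes of the clusters, HIST1H1C, which encodes H1.2, carried nearly all reads. It had 1105 reads (19.9 CPM) in DR and 1091 reads (31.3 CPM) in WT, a log2 ratio of -0.65 (-0.78 to -0.53). HIST1H1D had 8 and 3 reads and HIST1H1E 7 and 4 reads, and both intervals spanned 0. HIST1H1B had 0 and 2 reads, and HIST1H1T, the linker histone of the testis, also had 0 and 2. A count of 0 in this table allows up to 3 reads, which is 0.054 CPM in DR and 0.0861 CPM in WT. The H1 family value is therefore close to that of HIST1H1C alone.

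Among the H2A genes of the clusters that were compared, the largest difference was in HIST2H2AA3 and HIST2H2AA4, duplicated neighbours on chromosome 1 whose stem-loop is printed above. Each had 171.12 deposited counts in DR and 326.28 in WT, or 3.08 and 9.35 CPM. Taken as 1 pair with 342 and 653 reads, their level was 3.04-fold higher in the library labelled WT (log2 ratio -1.61, interval -1.80 to -1.41). As the 2 genes hold equal values in both libraries, they count as 1 observation. HIST3H2A, an H2A gene of the small cluster on chromosome 1, went the other way with 334.95 and 142.82 deposited counts (6.03 and 4.10 CPM), a log2 ratio of 0.56 (0.27 to 0.85). It was the H2A cluster gene with most reads per kilobase in DR, at 12.2 against 8.27 in WT. In WT, HIST2H2AA3 and its equal partner HIST2H2AA4 stood highest of the H2A cluster genes, at 17.5 against 5.76 in DR. HIST1H2AC, known to give polyadenylated mRNA, stood at 5.11 and 5.68 CPM with an interval across 0 (-0.42 to 0.12).

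Among the H2B genes HIST1H2BK had the most reads of all cluster genes, 1521.41 and 1218.31 deposited counts. Its level was 27.4 CPM in DR and 34.9 CPM in WT, a log2 ratio of -0.35 (-0.46 to -0.24). HIST2H2BE, whose table length of 2223 bases is far greater than the end position of its stem-loop, had 9.36 and 13.5 CPM (-0.53, interval -0.71 to -0.35). HIST1H2BD had 4.99 and 6.25 CPM (-0.33, interval -0.59 to -0.06). These 3 genes, the H2B genes with most reads, were all lower in the library labelled DR. HIST1H2BH had the largest ratio of the H2B genes compared: it had 44 reads in DR and 4 in WT, 0.792 and 0.115 CPM, a 6.90-fold ratio (log2 2.79, interval 1.33 to 4.73). With 0.5 CPM added its log2 fold change was 1.07, and with under 50 reads in all it was the only cluster gene called higher.

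HIST1H2BK and HIST1H1C together gave 46.3% of all cluster reads in DR and 46.4% in WT. Both belong to 9 cluster genes known from general knowledge to give polyadenylated mRNA as well (with HIST1H2AC, HIST1H2BC, HIST1H2BD, HIST2H2BE, HIST1H4H, HIST2H2AA3 and HIST2H2AA4). These 9 held 72.6% of cluster reads in DR and 78.6% in WT. All 9 had a log2 fold change below 0, against 48.9% of all genes compared. The 9 genes ran from -1.46 to -0.14 with a median of -0.48. Their summed level was 74.1 CPM in DR and 112 CPM in WT, a log2 ratio of -0.60 (-0.66 to -0.53). The other cluster genes summed to 28.0 and 30.5 CPM, a log2 ratio of -0.13 (-0.24 to -0.01). The lower cluster sum in the library labelled DR thus came mainly from these 9 genes, and their list was not chosen blind to these data.

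Among the H3 genes of the clusters, which encode the H3 laid down behind replication forks, HIST1H3H stood highest with 94 and 58 reads (1.69 and 1.66 CPM), a log2 ratio of 0.02 (-0.46 to 0.52). HIST1H3G had 35 and 14 reads (0.65, interval -0.28 to 1.66) and HIST1H3D 40 and 32 reads (-0.35, interval -1.06 to 0.37). Neither could be separated from 0 at this depth. HIST1H3F, with 9 and 1 reads, had an interval from -0.35 to 7.95. The replacement H3 genes H3F3A and H3F3B gave 285 times as many reads as the H3 cluster genes in DR and 312 times as many in WT. These ratios are not corrected for length, and the table gives 1077 bases for H3F3A, 2909 for H3F3B and 473 for HIST1H3H.

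Among the H4 genes, HIST1H4C stood highest per kilobase and was called lower: it had 115 reads in DR and 188 in WT, 2.07 and 5.39 CPM, a 2.61-fold higher level in the library labelled WT (log2 ratio -1.38, interval -1.73 to -1.04). HIST2H4A and HIST2H4B, again duplicated neighbours with equal values, each had 61.86 and 45.5 deposited counts, and as a pair a log2 ratio of -0.23 (-0.63 to 0.18). HIST1H4K, in the HIST1 cluster, had 69.51 and 16 deposited counts, 1.26 and 0.459 CPM, a log2 ratio of 1.46 (0.66 to 2.34), which with 0.5 CPM added was 0.88 and under the threshold. It was chosen for mention after its values were seen. The H4 genes of the clusters are known to encode the same protein, and they differed in direction.

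By location, the 11 HIST2 genes summed to 19.7 CPM in DR and 37.4 CPM in WT, a log2 ratio of -0.92 (-1.04 to -0.80), which without HIST2H2AA3 and HIST2H2AA4 was -0.46. The 46 HIST1 genes with counts summed to 75.6 and 101 CPM (-0.42, interval -0.48 to -0.35). The HIST3 genes HIST3H2A and HIST3H2BB summed to 6.59 and 4.33 CPM (0.60, interval 0.33 to 0.89). Both members of the HIST3 pair, whose promoters overlap by 271 bases, were higher in the library labelled DR, HIST3H2BB by a log2 ratio of 1.28 (0.13 to 2.61). Both members of the pair HIST2H2AC and HIST2H2BE, which share 265 bases, were lower, HIST2H2AC by -1.28 (-2.20 to -0.40). Of the 8 such H2A and H2B pairs with at least 10 reads for each gene, 5 had both genes below 0, 1 had both above and 2 had opposite signs. Among those 5 pairs, only HIST2H2AC and HIST2H2BE had both intervals below 0. Of all cluster genes compared, 69.8% were below 0, and whether paired genes move together was not tested.

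Of the variant genes, 10 of 16 reached 10 reads, and 3 of these were called higher (7.48% of all genes) and 0 lower (4.16% of all genes) in the library labelled DR. Their median log2 fold change was -0.02, against 0.01 for all genes. H1FX, which encodes the linker histone H1X, had 28786 reads (518 CPM) in DR and 7691 reads (221 CPM) in WT, a 2.35-fold higher level in DR (log2 ratio 1.23, interval 1.20 to 1.27). H1F0, which encodes H1.0, the linker histone known to accumulate in cells that leave the cycle, had 5775 reads (104 CPM) and 1797 reads (51.5 CPM). Its ratio was 2.02-fold, and its interval reached to both sides of the threshold (log2 0.94 to 1.09). With a pseudocount of 5 CPM its log2 fold change was 0.946 and the call was lost. Both linker histone variants were thus higher in the library labelled DR, while HIST1H1C of the cluster was lower.

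H2AFJ, an H2A variant gene whose promoter window on chromosome 12 starts 2774 bases from the end of that of HIST4H4, had the largest fold of the 10 variants compared. It had 791.15 and 155.99 deposited counts, 14.2 CPM in DR and 4.47 CPM in WT, a 3.18-fold higher level in DR (log2 ratio 1.67, interval 1.42 to 1.93). HIST4H4 itself had 7 reads in DR and 0 in WT. H2AFY, the gene for macroH2A of the first type, stood at 270 and 192 CPM (0.49, interval 0.45 to 0.53). H2AFX, the variant with a stem-loop, stood at 102 and 148 CPM (-0.53, interval -0.58 to -0.48). H2AFX thus moved in the direction of the cluster sum and H2AFY against it, both under the threshold. The H2A.Z genes were slightly lower, H2AFZ at 298 and 360 CPM (-0.27, interval -0.31 to -0.24) and H2AFV at 171 and 199 CPM (-0.22, interval -0.26 to -0.17).

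The replacement H3 genes barely differed. H3F3A stood at 914 CPM in DR and 929 CPM in WT, a log2 ratio of -0.02 (-0.04 to -0.0036), and H3F3B at 382 and 387 CPM (-0.02, interval -0.05 to 0.01), and both signs turned when library totals alone were used for scaling (0.01 and 0.02). H3F3A gave 70.5% of the reads of the pair in DR and 70.6% in WT, not corrected for length. Per kilobase H3F3A stood at 849 CPM in DR and 863 in WT, and H3F3B at 131 and 133. H3F3C, a retrocopy of H3F3B, had 14.84 and 11.31 deposited counts. The remaining variants were near the floor: H2AFY2 had 5 and 3 reads, H1FOO of the oocyte 1 and 1, H1FNT of the testis 1 and 0, H2AFB1 1 and 8, H2AFB2 0 and 2 and H2AFB3 7 and 0. The last 3 are near-identical testis genes on chromosome X, so their reads cannot be assigned to single copies with certainty.

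**Figure D4:**
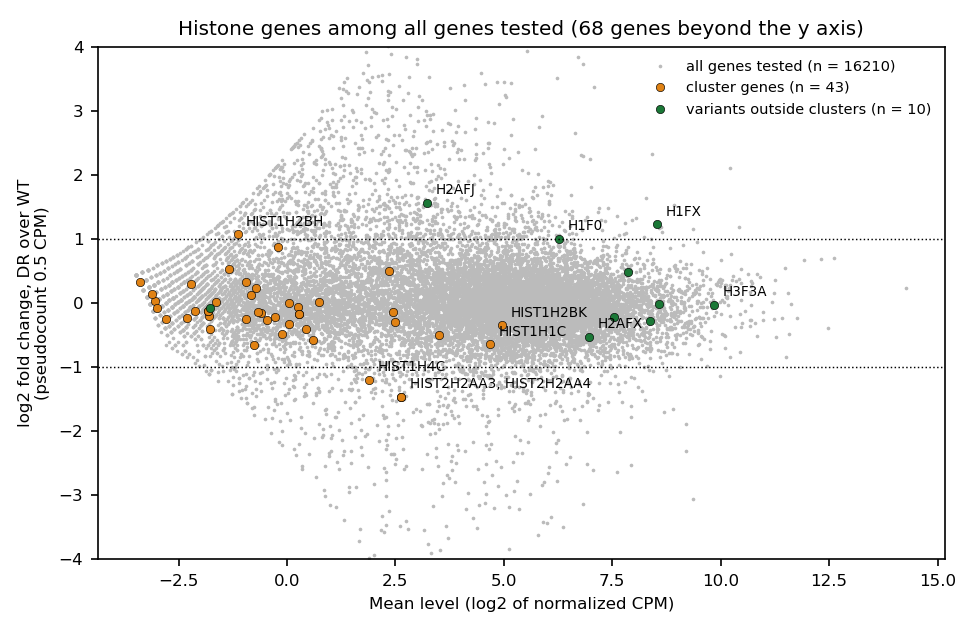
log2 fold change (DR over WT, 0.5 CPM added) against mean level (log2 of normalized CPM) for the 16210 genes compared (grey), with 43 cluster genes in orange and 10 variants in green. Dotted lines mark -1 and 1, and 68 genes lie beyond the y axis; most cluster genes sit at the low end, while H1FX and H1F0 sit on or above the upper line at high levels.

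Fractional counts, such as arise when a read is shared between genes, were frequent among the histone genes. How the authors assigned such reads is not given in the sources used here. Of the 76 histone genes with counts, 45 (59.2%) had a fractional value in at least 1 library, against 49.9% of all genes with counts. The share was 63.3% of cluster genes (38 of 60) and 43.8% of variant genes (7 of 16). It was highest in H2A and H2B, with 14 of 16 genes each (87.5%), and lower in H4 (6 of 11), H3 (4 of 12) and H1 (0 of 5). The table also held 3 pairs of genes with equal values in both libraries, HIST2H2AA3 with HIST2H2AA4, HIST2H4A with HIST2H4B, and HIST2H3A with HIST2H3C (13.92 and 11.25 each). These 3 pairs gave 8.71% of cluster reads in DR and 15.4% in WT. Levels of single genes of these kinds are uncertain. The family sums, which hold cluster genes only, do not depend on how a read was split among the cluster genes of a family. A read split with a variant gene or with another family would change them.

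The genes that process histone mRNA and carry histones were compared as a list of 46, chosen from general knowledge. Of these, 0 were called higher and 1 lower, beside 7.48% and 4.16% of all genes, with a median log2 fold change of -0.06. ANP32E, a chaperone that removes H2A.Z from chromatin, was the gene called lower, with 15562 reads (280 CPM) in DR and 20215 reads (580 CPM) in WT, a log2 fold change of -1.05. SLBP, which binds the stem-loop of histone mRNA, stood at 116 and 146 CPM (-0.33), and NPAT, which activates histone transcription in S phase, at 62.0 and 64.7 CPM (-0.06). Among the histone chaperones, ASF1A, which hands H3 and H4 to both assembly routes, had 37.8 and 64.4 CPM (-0.76) and its paralogue ASF1B 125 and 124 CPM (0.01). Of 24 genes of the replication phase, with SLBP again among them, 0 were called in either direction. Their median was -0.08, with 18 below 0 and 6 above, while 48.9% of all genes compared were below 0. The 24 values ran from -0.58 for GINS2 to 0.40 for MCM7. GINS2 is a subunit of the GINS complex of the replicative helicase and MCM7 a subunit of its MCM ring.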

How the data were processed

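RNA-seq was compared between 1 library labelled DR and 1 library labelled WT. The authors deposited 1 table of 18930 genes with estimated counts per gene and library, not normalized, and gene lengths. For 663 genes it holds no count. It also holds the authors' log2 ratio, p-value, q-value and direction for each gene, which were not used, and 0 further columns of samples. The submitters' processing notes name Bowtie 0.12.2 and hg19. The counting tool is not given in the sources used here.

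Estimated counts were rounded to whole reads. Library sizes were scaled with TMM (edgeR 4.0.16, R 4.3.3) over all genes. A minimum of 10 reads, summed over the libraries, left 16210 genes for comparison and 2057 out, on log2(CPM + 0.5). With 1 library per group no count test could be fitted. Ratios carry 95% Clopper-Pearson intervals and sums exact Poisson intervals (SciPy 1.17.1, Python 3.11.15). Reads carry no molecular identifiers here. Fold changes were tested on simulated data with counting noise only and known changes larger than the threshold. The changes were planted in genes with many reads, so calls in genes with few reads, as in most cluster genes, were not checked. Alternatives were DESeq2 1.42.0 size factors, library totals, unrounded counts, no fractional genes, pseudocounts of 0.1 and 5 CPM, other read minimums and a log2 threshold of 2.

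All 81 members matched RefSeq by gene ID. Stem-loops were read from GENCODE 29 (GRCh38) and promoters from RefSeq GRCh38.p14. The notes name another build, so no position was read from the table. The members and lists were chosen with earlier results of these data known. Genes named are all variants with counts, the 3 cluster genes per family with most reads per kilobase, the cluster and supply genes past the threshold, SLBP and NPAT. Others were named after their values were seen, among them HIST1H2AC, HIST1H4K, HIST1H3F, the HIST3 genes, ASF1A, ASF1B, GINS2 and MCM7.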

Additional observations from a re-analysis of the deposited data

How the results depend on the processing

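No paired analysis was possible because each group holds 1 library, and for the same reason no library could be left out. No direction of a called gene turned under the alternatives run. Scaling by library totals moved the variant median to 0.014 and the variant sum to 0.19. Leaving out genes with fractional counts left 1 cluster gene lower, a cluster median of 0.019 and a variant median of 1.005. The cluster sum was then -0.55 and the variant sum 0.54. By part, the sums were -0.087 for H2A, 1.15 for H2B, -1.11 for H4 and -0.56 for HIST1. Only 7508 genes were compared at that setting, of which 9.44% (709) were higher and 4.77% (358) lower. All HIST2 and HIST3 genes with counts have fractional values, so these sums could not be computed there. A pseudocount of 0.1 CPM gave 3 cluster genes higher and 4 lower, with HIST2H2AC added to the lower genes. At that setting 10.6% of all genes compared were higher and 5.6% lower. A pseudocount of 5 CPM gave 0 cluster genes higher and 0 lower, with 2 variants higher and H1F0 lost at 0.946. Of all genes compared, 2.61% (423) were then higher and 2.05% (333) lower. A minimum of 50 reads left 0 cluster genes higher and 3 lower, beside 8.12% and 4.36% of all genes compared. At a log2 threshold of 2, 0 cluster genes were higher and 0 lower, 0 variants were higher and 0 supply genes lower. Of all genes compared, 2.09% (339) were past it upward and 1.17% (189) downward. Added after seeing the data, the cluster sum was -0.13 without the 9 genes known to be polyadenylated and -0.37 without HIST2H2AA3 and HIST2H2AA4, the H2A sum without that pair was -0.025, the HIST2 sum without it was -0.46, and the H4 sum without HIST1H4C was 0.017. Counting each pair of genes with equal values once, also added after seeing the data, left 1 cluster gene higher and 2 lower. DESeq2 size factors and unrounded counts changed none of the summary results. Depth limits the cluster genes most, since 13 of the 43 compared could not reach the threshold of 1 with 0.5 CPM added. How far the 2 libraries differ by chance cannot be told without replicates.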

Other observations

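Other genes of the histone families lie outside the symbols used. H2BFM, an H2B gene on chromosome X, had 77.66 deposited counts in the DR library and 56.77 in the WT library (1.40 and 1.64 CPM), with a log2 ratio of -0.22 (-0.73 to 0.30). H2BFWT, the testis H2B gene, had 7.34 and 4.23 deposited counts. CENPA, which encodes the H3 of centromeres, had 1467 and 947 reads (26.4 and 27.2 CPM), with a log2 ratio of -0.04 (-0.16 to 0.08). Its chaperone HJURP stood at 80.1 and 105 CPM, with a log2 ratio of -0.39 (-0.45 to -0.33).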
